A study of Geissois pruinosa and Geissois racemosa with 6 samples.

Results

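The contigs described here were counted in the leaves of every Geissois pruinosa plant and in no leaf of Geissois racemosa. A contig is a transcript sequence assembled from reads without a genome. The members have at least 10 read counts in each of 3 G. pruinosa libraries and 0 counts in each of 3 G. racemosa libraries. Of 54969 contigs in all, 222 met this rule, which is 0.604% of the 36729 contigs that reached 10 counts in each G. pruinosa library. The counts themselves chose the members, so the difference between the species is a description here, with no test.

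Leaves were taken from wild plants in New Caledonia, and polyadenylated RNA was sequenced, with 1 plant per library. The 3 G. pruinosa plants are nickel hyperaccumulators by their labels and were sampled on 11 March. The 3 G. racemosa plants are labelled as non-accumulators and were sampled in June of that year, plant 1 on day 11 and the other plants on day 12. All were untreated, and the labels name serpentine maquis and rainforest on limestone as the habitats of the series. Species, site, habitat and month therefore cannot be told apart, and by the labels each species is represented by 3 separate individuals.

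Nickel hyperaccumulators carry the metal from the root to the shoot and hold it in leaf cells, largely in vacuoles, at concentrations that would poison most plants. Metal transporters of the ZIP and ferroportin (IREG) families are known from Arabidopsis and from other hyperaccumulators, where ferroportins can load nickel into the vacuole. No contig is paired with a gene name in the files, so no member can be assigned to these families, nor could leaf marker genes be looked up. Members are named by contig number. Reads of G. racemosa could be counted only where they matched a G. pruinosa sequence, so a transcript that is missing and one whose sequence differs cannot be told apart. In leaf RNA, fewer cells of a type and less RNA per cell cannot be told apart either.

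The library totals ran from 47385027 to 54103458 counts in G. pruinosa and from 23661301 to 64908952 counts in G. racemosa. In racemosa plant 1, 8311 contigs reached 500 counts. Over these, the CPM of pruinosa plant 3 was always at least 0.294 of that in racemosa plant 1. Of these contigs, 1028 lay below that ratio in pruinosa plant 1 and 642 in pruinosa plant 2. The lowest ratios in pruinosa plants 1 and 2 were 0 and 0.00018. Whether the library of pruinosa plant 3 holds reads of that plant alone was not tested. Pruinosa plant 2 had only 2 contigs with 0 counts, against 3481 in plant 1 and 3134 in plant 3. The sources used here do not say which plant was assembled.

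The members were low in abundance. Levels are given as CPM, the counts per 1000000 counts of the library. The mean level over the 3 G. pruinosa plants ran from 0.233 to 23.5 CPM, with a median of 0.98 CPM and quartiles of 0.513 and 1.96 CPM. Over all contigs that reached 10 counts in each G. pruinosa plant the median was 3.56 CPM. The rule of 0 counts in each G. racemosa library itself favours contigs of low level, so this gap is a description only. Of the members, 116 had a mean under 1 CPM, 103 had 1 to 10 CPM and only 3 had 10 CPM or more. The same classes held 9950, 14338 and 12441 contigs counted in every G. pruinosa plant. Together the members made up 462 CPM in pruinosa plant 1, 458.4 CPM in plant 2 and 309.1 CPM in plant 3, or 410 ± 87.3 CPM (SD, n = 3 plants). The 10 highest members held 26.1% of this sum, and 32 members held the first 50% of it.

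A count of 0 still allows a low level. With 3 counts as the upper limit that 0 counts allow, the limits for racemosa plants 1, 2 and 3 were 0.127, 0.0462 and 0.0600 CPM. These limits take the counts as independent and leave out the spread between plants. The reads carry no molecular identifiers, so whether the counts are independent could not be checked. The minimum of 10 counts in each G. pruinosa plant places every member above these limits by construction. At the G. pruinosa mean, a member would have given between 5.51 and 556.4 counts in racemosa plant 1, with a median of 23.2. In the deeper library of racemosa plant 2 the same levels would have given between 15.1 and 1526 counts, with a median of 63.6. The G. pruinosa mean of the median member thus stood 7.73-fold above the limit in racemosa plant 1. For racemosa plants 2 and 3 it was 21.2-fold and 16.3-fold. Within what the limits cover, these are lower bounds on the fold over the G. racemosa level. With the lowest G. pruinosa plant in place of the mean, the smallest ratio to the limit in racemosa plant 1 was 1.46. A bound of at least 10-fold was reached by 86 members against racemosa plant 1 and by 178 against racemosa plant 2, and one of at least 100-fold by 2 and 20 members.

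**Figure D1:**
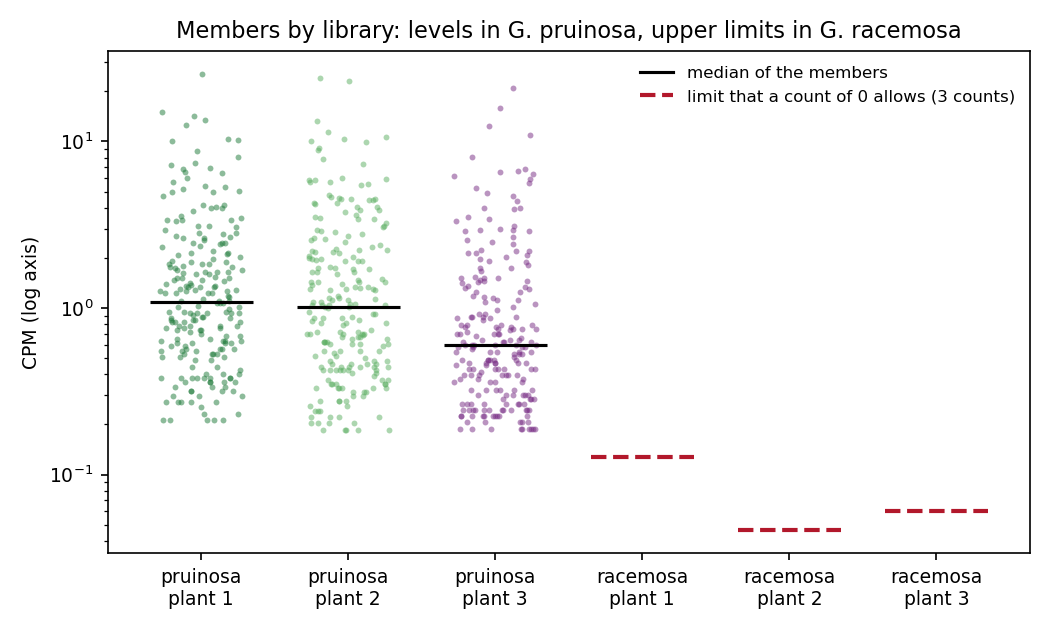
Levels of the 222 members in each G. pruinosa library (points, CPM on a log axis; black line, median of the members) and the limit that a count of 0 allows in each G. racemosa library (dashed line, 3 counts). The medians were 1.09, 1.02 and 0.602 CPM in pruinosa plants 1, 2 and 3, and the limits are 0.127, 0.0462 and 0.0600 CPM in racemosa plants 1, 2 and 3; the minimum of 10 counts sets the lower edge of the points.

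The 10 highest members were led by Gpru_v1_contig_3498. It had 1211, 1300 and 1114 counts in pruinosa plants 1, 2 and 3, against 0 counts in each of the 3 G. racemosa plants. These counts are 25.6, 24.0 and 21.0 CPM, or 23.5 ± 2.34 CPM (SD, n = 3 plants). The 3 plants were nearly level, with a ratio of highest to lowest of 1.22. The mean of this contig was 185-fold above the limit in racemosa plant 1 and 509-fold above that in racemosa plant 2.

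The second, Gpru_v1_contig_14343, had 484, 1256 and 841 counts in pruinosa plants 1, 2 and 3 (16.4 ± 6.52 CPM, SD, n = 3 plants), against 0 counts in each G. racemosa plant. Plant 2 was the highest and plant 1 the lowest, 2.27-fold apart. Gpru_v1_contig_16722 had 479, 494 and 660 counts (10.6 ± 1.69 CPM, SD, n = 3 plants) and was highest in plant 3. It was the last member with a mean above 10 CPM.

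The other 7 of the 10 averaged from 7.28 CPM (Gpru_v1_contig_31487) to 9.63 CPM (Gpru_v1_contig_9868), and they differed in how evenly the plants carried them. Gpru_v1_contig_9305 had 7.43, 8.85 and 8.03 CPM in pruinosa plants 1, 2 and 3, so all plants lay close together. Gpru_v1_contig_9868 had 8.02, 9.98 and 10.9 CPM, and Gpru_v1_contig_10078 had 12.6, 5.67 and 6.87 CPM in the same order. By contrast, Gpru_v1_contig_8940 stood at 10.4 and 10.02 CPM in plants 1 and 2 and at 3.50 CPM in plant 3. Plant 1 led in Gpru_v1_contig_34952, at 14.2, 2.88 and 5.65 CPM in plants 1, 2 and 3. It also led in Gpru_v1_contig_31487, at 15.1, 4.53 and 2.20 CPM. Gpru_v1_contig_19566 had the largest ratio of highest to lowest plant of the 10, with 13.5, 7.89 and 0.715 CPM in plants 1, 2 and 3.

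**Figure D2:**
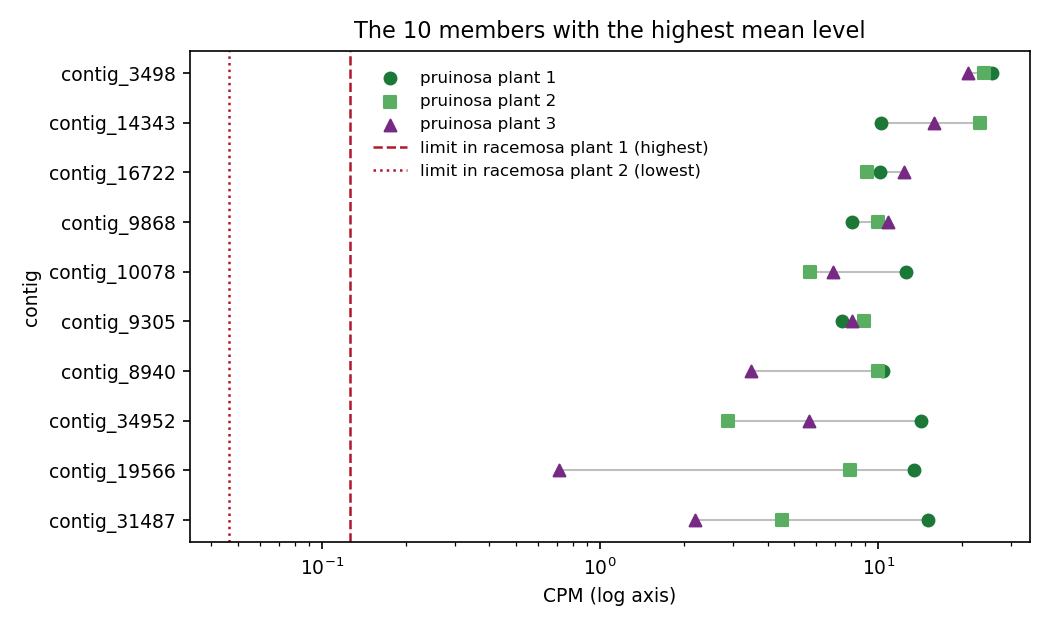
CPM (log axis) of the 10 members with the highest mean, one row per contig, with a symbol for each G. pruinosa plant and a line across their range. The dashed and dotted lines mark the limits in racemosa plant 1 (0.127 CPM) and racemosa plant 2 (0.0462 CPM), and the lowest symbol, Gpru_v1_contig_19566 in pruinosa plant 3, stands at 0.715 CPM.

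The median spread between G. pruinosa plants was larger over the members than over contigs in general, a difference given without a test. Their median coefficient of variation (SD over mean of the 3 plants) was 0.469, beside 0.352 over all contigs that reached 10 counts in each plant. The classes of like level gave 0.437 and 0.378 under 1 CPM, and 0.5 and 0.398 at 1 to 10 CPM, for members and for all such contigs. At 10 CPM or more the order was the other way round, with 0.16 for the 3 members and 0.278 for all such contigs. Contigs with 0 counts in only racemosa plant 1, 2 or 3 and at least 10 in the others had 0.45, 0.516 and 0.557 (355, 36 and 25 contigs). Those with at least 10 in only racemosa plant 1, 2 or 3 and 0 in the others had 0.549, 0.507 and 0.519 (15, 17 and 42 contigs). A larger spread than over all contigs was thus not particular to the members. In the median member the highest plant was 2.60-fold above the lowest. In 26 members the plants lay within 1.5-fold, in 39 they were at least 5-fold apart and in 8 at least 10-fold. The ranking of the members also differed between plants. Spearman's rho over the 222 members was 0.728 between plants 1 and 2, 0.563 between plants 1 and 3 and 0.579 between plants 2 and 3. Over the 36729 contigs it was 0.91, 0.874 and 0.908. The narrow range of levels and the shared count minimum bear on these values, which describe the libraries only.

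Among the 106 members with a mean of at least 1 CPM, those with the smallest ratio of highest to lowest plant included Gpru_v1_contig_9305 (1.19), Gpru_v1_contig_3498 (1.22) and Gpru_v1_contig_9868 (1.36), already described. The other two were Gpru_v1_contig_10886, with 190, 228 and 280 counts in pruinosa plants 1, 2 and 3, and Gpru_v1_contig_7734, with 253, 241 and 318 counts. Both had 0 counts in all G. racemosa plants. Their means were 4.50 ± 0.675 and 5.26 ± 0.768 CPM (SD, n = 3 plants each), and their ratios of highest to lowest were 1.31 and 1.34.

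At the other end, 4 of the 5 most uneven members were carried mainly by pruinosa plant 2. Gpru_v1_contig_11359 had 63, 619 and 10 counts in pruinosa plants 1, 2 and 3, a 60.8-fold range in CPM. Gpru_v1_contig_17327 had 35, 717 and 16 counts, a 44.0-fold range. Gpru_v1_contig_25137 had 27, 209 and 13 counts and Gpru_v1_contig_17433 had 25, 138 and 11 counts, with ranges of 15.8-fold and 12.3-fold. In these 4 contigs plant 2 alone was high and plant 3 was the lowest. The remaining one was Gpru_v1_contig_19566, with an 18.9-fold range between plants 1 and 3.

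Some members stood out in a single other plant. Gpru_v1_contig_49048 had 15, 22 and 183 counts in pruinosa plants 1, 2 and 3, so that plant 3 was 8.47-fold above the next plant in CPM. Gpru_v1_contig_41776 had 41, 51 and 354 counts, with plant 3 7.07-fold above the next. For plant 1 the largest such gaps were smaller. Gpru_v1_contig_47179 had 70, 15 and 16 counts, with plant 1 4.91-fold above the next, and Gpru_v1_contig_15474 had 131, 36 and 33 counts, with a gap of 4.16-fold.

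Pruinosa plant 3 carried the members at the lowest level. It was the lowest of the 3 plants in 128 members (57.7%), against 42 for plant 1 and 52 for plant 2. Over all contigs that reached 10 counts in each plant, plant 3 was the lowest in 38.8%. It was the highest in 32 members (14.4%), beside 34.2% of all such contigs. The median CPM ratio of plant 3 to plant 1 was 0.579 over the members and 1.02 over all such contigs. To plant 2 it was 0.651 and 0.93. The ratio of plant 1 to plant 2 was 1.10 over the members and 0.903 over all such contigs.

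The level classes were also looked at one by one. Under 1 CPM plant 3 was the lowest in 53.4% of members and 48.4% of all such contigs, a small gap. At 1 to 10 CPM these shares were 63.1% and 39.2%, and at 10 CPM or more 33.3% of the 3 members and 30.6%. Plant 3 was the highest in 14.7% and 23.7% under 1 CPM, and in 13.6% and 33.3% at 1 to 10 CPM. Among contigs under 1 CPM the ratio of plant 3 to plant 1 was 0.58 over the members and 0.835 over all contigs counted in each plant, and among those with 1 to 10 CPM it was 0.564 and 1.01. The ratio of plant 3 to plant 2 was 0.757 and 0.80 under 1 CPM, a small gap, and 0.578 and 0.906 at 1 to 10 CPM. Over the 3 members of 10 CPM or more, the median ratio of plant 3 was 1.23 to plant 1 and 0.872 to plant 2. Over all such contigs it was 1.17 and 1.02.

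**Figure D3:**
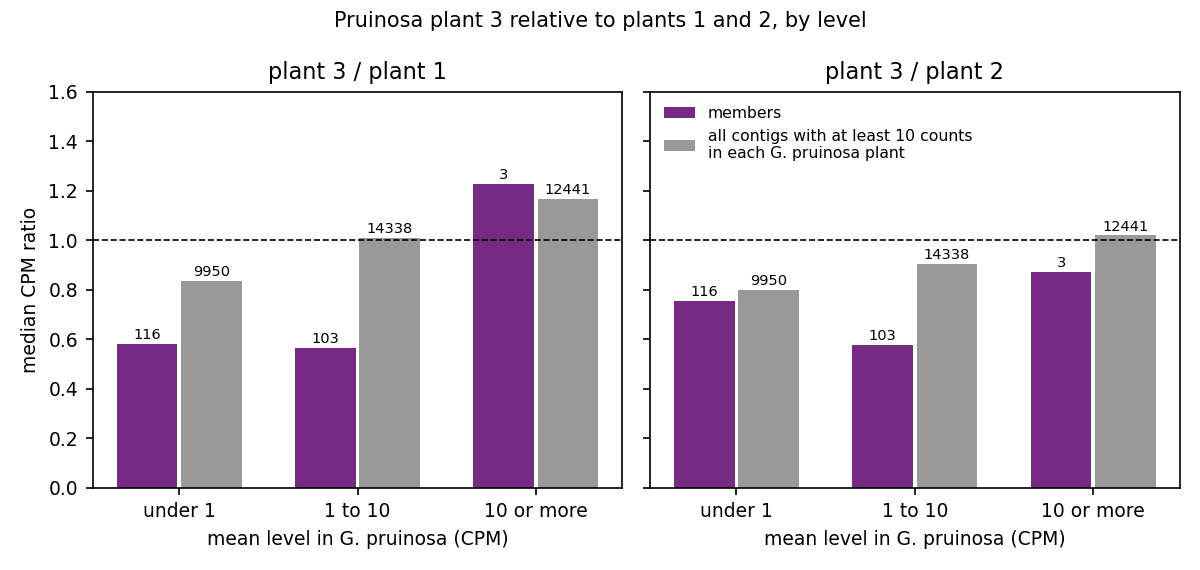
Median CPM ratio of pruinosa plant 3 to plant 1 (left) and to plant 2 (right), by mean level in G. pruinosa, for the members (purple) and for all contigs that reached 10 counts in each G. pruinosa plant (grey); the number over each bar is the number of contigs and the dashed line marks equal levels. At 1 to 10 CPM the members stood at 0.564 and 0.578, and all such contigs at 1.01 and 0.906.

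Low values in plant 3 were also found for contigs that only racemosa plant 1 lacked, the library below 0.294 of which plant 3 did not fall at well counted contigs. These 355 contigs reached 10 counts in each G. pruinosa plant and had 0 counts in racemosa plant 1 and at least 10 in both other G. racemosa plants, with a median level of 0.60 CPM in G. pruinosa. Their median ratio of plant 3 was 0.594 to plant 1 and 0.566 to plant 2, close to the values of the members. For 36 contigs with 0 counts in racemosa plant 2 only it was 1.14 and 0.927, at a median level of 1.08 CPM. For 25 contigs with 0 counts in racemosa plant 3 only it was 1.27 and 0.696, at a median level of 2.42 CPM. Contigs that reached 10 counts in all 6 libraries, 28198 in number, had ratios of 1.11 and 0.987, at a median level of 7.21 CPM. Those of them under 1 CPM, 3652 in number, had 1.07 and 0.945. The sets with 0 counts in 1 library were not matched for level, with which the ratios also varied. The part that the library of pruinosa plant 3 plays in the levels of the members was not tested. Over 2 plants, the median coefficient of variation was 0.322 without plant 3, 0.428 without plant 1 and 0.472 without plant 2. A value over 2 plants is not like the 0.469 over all 3, and none was computed over all contigs.

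**Figure D4:**
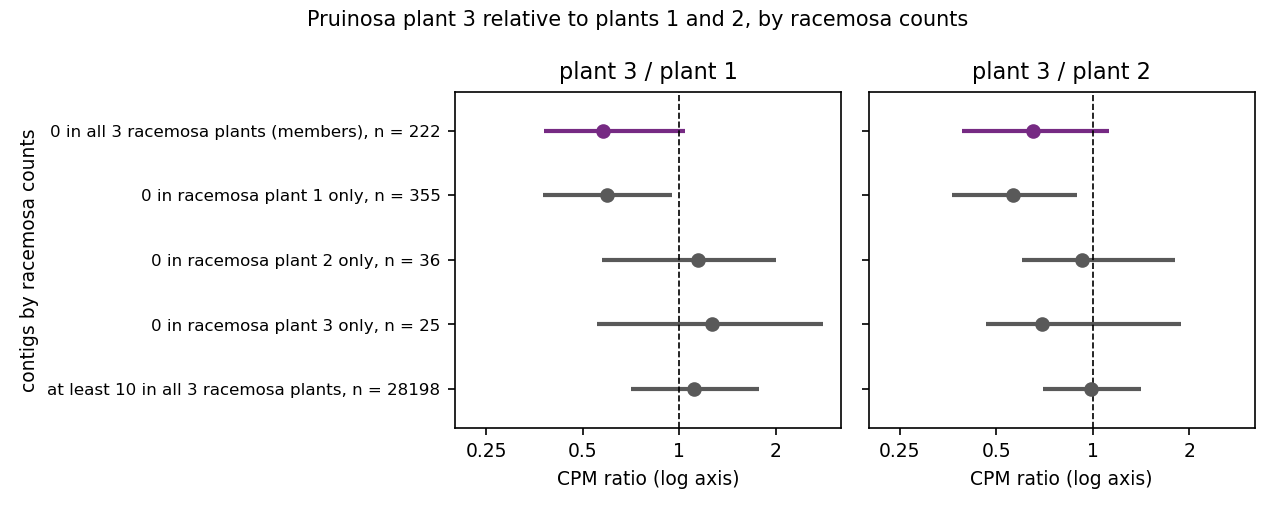
CPM ratio (log axis) of pruinosa plant 3 to plant 1 (left) and to plant 2 (right) for contigs that reached 10 counts in each G. pruinosa plant, grouped by which G. racemosa libraries had 0 counts (the others had at least 10). Points are medians, lines run from the lower to the upper quartile and the dashed line marks equal levels; the members, at 0.579 and 0.651, lie beside the contigs with 0 counts in racemosa plant 1 only, at 0.594 and 0.566.

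Each library could be set against a choice made without it, which gives values that took no part in choosing the contigs. Without pruinosa plant 3 the other 5 libraries chose 480 contigs, of which 46.3% (exact Clopper-Pearson 95% interval 41.7 to 50.8%) had at least 10 counts in it, 154 had 1 to 9 and 104 had 0. Without pruinosa plant 1 they chose 392, of which 56.6% (51.6 to 61.6%) had at least 10 counts in it, 79 had 1 to 9 and 91 had 0. Over all contigs that reached 10 counts in the other two G. pruinosa plants, 90.5% had at least 10 in plant 3 and 89.1% in plant 1. Without pruinosa plant 2 they chose 228, and 97.4% (94.4 to 99.03%) had at least 10 counts in it, beside 99.1% of all contigs that reached 10 counts in plants 1 and 3. The contigs chosen without plant 3 had a median level there of 0.225 of the mean of plants 1 and 2. Those chosen without plant 1 had 0.591 of the mean of plants 2 and 3. The corresponding medians over all contigs counted in the plants used were 0.863 and 0.835. A choice on 2 G. pruinosa plants itself favours lower counts in the third. All such contigs include many of higher level, and no share or ratio at like level was computed. These shares and ratios are therefore a description only.

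When racemosa plant 1 was left out, 289 contigs met the rule in the other 5 libraries. Of these, 222 (76.8%, 71.5 to 81.6%) also had 0 counts in racemosa plant 1. For racemosa plant 2 it was 67.7% (62.3 to 72.7%) of 328 contigs, and for racemosa plant 3 it was 56.3% (51.3 to 61.3%) of 394 contigs. Over the 36729 contigs counted in every G. pruinosa plant, 3.96%, 1.82% and 1.43% had 0 counts in racemosa plants 1, 2 and 3. Most contigs chosen with 0 counts in 2 G. racemosa plants thus had 0 counts in the third as well. A choice for 0 counts in 2 plants itself favours low counts in the third. The 36729 contigs include many of higher level than the members, and no share at like level was computed. Agreement between the G. racemosa plants is therefore not read from these shares. The intervals cover counting error over contigs, which are not replicates of a species.

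Most contigs that failed in the library left out had few counts there. Of the 67, 106 and 172 contigs that did so, 52, 89 and 130 had 1 to 9 counts in racemosa plants 1, 2 and 3, and 15, 17 and 42 had at least 10. A few were high in a single G. racemosa plant. The contig with the most counts in each case is given here, chosen after its values were seen. Gpru_v1_contig_6795 had 395, 1010 and 36 counts in pruinosa plants 1, 2 and 3, against 0, 0 and 1026 counts in racemosa plants 1, 2 and 3. Gpru_v1_contig_38591 had 63, 71 and 168 counts in G. pruinosa, against 246, 0 and 0 in G. racemosa. Gpru_v1_contig_11186 had 55, 135 and 152 counts in G. pruinosa, against 0, 315 and 0 in G. racemosa. In CPM, the single G. racemosa plant (20.5, 10.4 and 4.85) exceeded the highest G. pruinosa plant (18.7, 3.16 and 2.86) in all 3 of them.

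**Figure D5:**
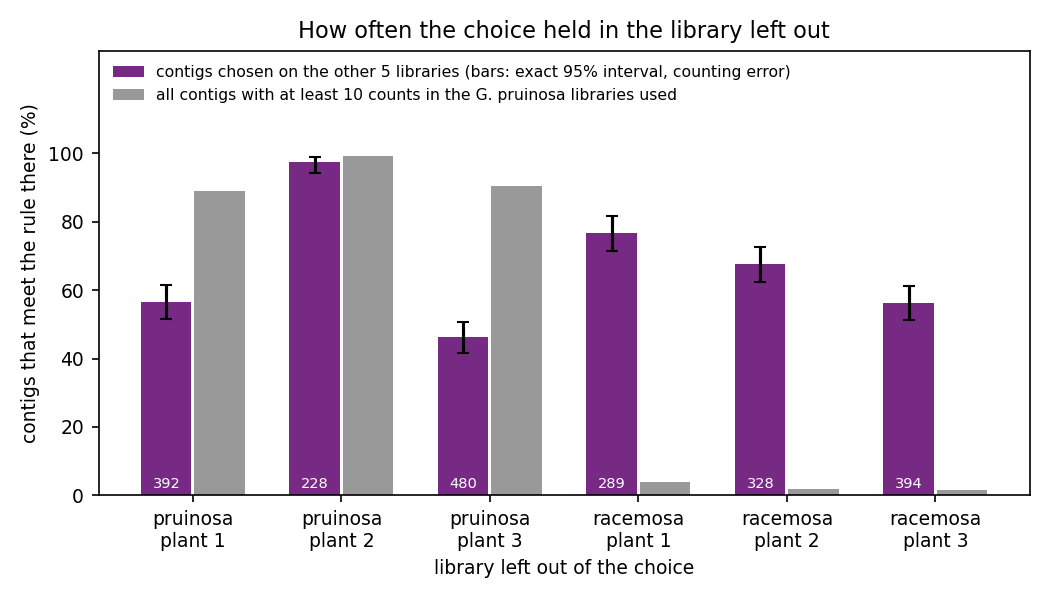
Share of contigs (%) that meet the rule in a library left out of the choice, for contigs chosen on the other 5 libraries (purple, their number inside the bar, error bars the exact 95% interval for counting error) and for all contigs that reached 10 counts in the G. pruinosa libraries used (grey). The rule is at least 10 counts in a G. pruinosa library and 0 counts in a G. racemosa library; the purple bars of G. racemosa stand at 76.8, 67.7 and 56.3%, beside grey bars of 3.96, 1.82 and 1.43%.

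The edges of the rule were not gaps in the data. The lowest G. pruinosa count was exactly 10 in 19 members, such as Gpru_v1_contig_11359 above and Gpru_v1_contig_18692 with 60, 55 and 10 counts in pruinosa plants 1, 2 and 3. Just outside, 16 contigs had a lowest count of 9 and 0 counts in G. racemosa, such as Gpru_v1_contig_14146 with 9, 43 and 13 counts and Gpru_v1_contig_16373 with 9, 215 and 49. On the other side, 92 contigs counted in every G. pruinosa plant had a single count over the 3 G. racemosa libraries. One of them, Gpru_v1_contig_2850, had 3391, 2440 and 1437 counts in pruinosa plants 1, 2 and 3, against 1, 0 and 0 counts in racemosa plants 1, 2 and 3. Another, Gpru_v1_contig_3157, had 32, 24 and 17 counts in G. pruinosa, against 1, 0 and 0 counts in G. racemosa. Sums of 2, 3, 4 and 5 G. racemosa counts were found for 96, 78, 82 and 68 contigs.

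The requirement of 0 counts kept out some contigs with high levels in G. pruinosa. Of the 416 contigs with 1 to 5 counts over the G. racemosa libraries, 23 averaged 10 CPM or more in G. pruinosa, where the members had 3. The median of the 416 was 0.747 CPM, below the 0.98 CPM of the members. The highest of them, chosen after its values were seen, was Gpru_v1_contig_6233. It had 8283, 3399 and 477 counts in pruinosa plants 1, 2 and 3, against 0, 1 and 2 counts in racemosa plants 1, 2 and 3. Its mean of 82.2 CPM in G. pruinosa exceeded that of every member, but its levels of 175, 62.8 and 8.97 CPM in plants 1, 2 and 3 differed widely.

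The members were spread over the whole contig numbering, from number 26 to number 54853. The sources used here do not explain the numbering. Of the contigs counted in each G. pruinosa plant, members made up 0.188% of those numbered 1 to 5496 and 1.36% of those numbered 49473 to 54969. Their median number was 29212, beside 19748 for all contigs counted in each G. pruinosa plant. Only 2 pairs of members had neighbouring numbers. Gpru_v1_contig_20673 had 247, 295 and 66 counts in pruinosa plants 1, 2 and 3 and Gpru_v1_contig_20674 had 19, 30 and 12, so that both were highest in plant 2 and lowest in plant 3. In the other pair, Gpru_v1_contig_36816 had 31, 17 and 21 counts and Gpru_v1_contig_36817 had 15, 30 and 14, with different plants on top. Whether such contigs are pieces of 1 transcript was not tested.

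In the comparison of the species over all contigs, 483 of 43447 contigs tested (1.11%) were called higher in G. pruinosa (edgeR quasi-likelihood test, Benjamini-Hochberg adjusted p under 0.05, 3 against 3 plants). Of the 222 members, 208 passed the filter on low counts and 100 were called. The rule used the same counts, so nothing is read from this number. The called members had a median level of 1.67 CPM in G. pruinosa and those not called or not tested 0.588 CPM. The median ratio of highest to lowest plant was 2.20 for members that were called and 3.31 for the rest. The number called changed when 1 library was left out, which also leaves 2 plants in 1 species. The cause was not tested. By edgeR it was 40 without pruinosa plant 1, 3 without plant 2 and 157 without plant 3, where 0.796%, 0.093% and 2.85% of all contigs tested were called higher. It was 1, 0 and 0 without racemosa plants 1, 2 and 3, where 0.0147%, 0% and 0.00424% were. In the fits with 0 calls, without racemosa plants 2 and 3, 12.5% and 15.7% of all contigs tested had an unadjusted p under 0.05, and so did all 222 members, whose p-values rest on the counts that chose them. DESeq2 on all libraries called 208 members, where it called 6.58% of all contigs higher in G. pruinosa. With the replicate number as a block, 0 members and 0.0368% of all contigs were called by edgeR, with 12.7% of all contigs and 208 members at an unadjusted p under 0.05.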

How the data were processed

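Per the file headers, the authors deposited unnormalised counts of reads on 54969 contigs, the same in all 6 libraries, and all values were whole. Per the labels, libraries were made with a stranded polyadenylated RNA kit from 1 plant each, and per the series' design text the authors mapped the reads of both species to a G. pruinosa assembly from 1 plant. The sources used here do not name the assembler, mapper or counting program, nor the treatment of strand and shared reads, so alleles or close copies may be separate contigs.

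Libraries were grouped by title. CPM used plain library totals. Depth was 23661301 to 64908952 counts, and 3 counts were taken as the limit of a count of 0. The species were compared in edgeR 4.0.16 (R 4.3.3; TMM factors 0.902 to 1.11, filterByExpr with its minimum count of 10, glmQLFit and glmQLFTest), tested on simulated data. Alternatives used DESeq2 1.42.0, limma-voom 3.58.1, other scalings and minimums, thinning, a replicate block and leaving out libraries. The labels pair no plants across species.

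Named contigs were the 10 highest members, the 5 most even and the 5 most uneven with a mean of at least 1 CPM, the 2 that stood out most in each G. pruinosa plant, and up to 2 at each edge of the rule. The members and lists were chosen with earlier results of these data known.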

Additional observations from a re-analysis of the deposited data

How the results depend on the processing

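The number of members depended on the rule. It was 350, 127 and 52 with minimums of 5, 20 and 50 counts, 99 with a minimum of 0.5 CPM, 337 and 509 with up to 1 and up to 2 counts in each G. racemosa library, and 140 after thinning each library to the lowest total (115 of them among the 222). Leaving out 1 library gave 228 to 480, and leaving out both pruinosa plant 3 and racemosa plant 1, an alternative chosen after seeing the data, gave 585. The median level was 1.64 CPM with a minimum of 20 counts, 0.597 CPM with one of 5, and 0.849 to 1.14 CPM without 1 plant. The median bound on the fold was 45.2 with 3 counts over the 3 G. racemosa libraries together, and 6.70 to 8.95 without 1 plant. The median coefficient of variation was 0.322 to 0.472 without 1 plant. TMM-scaled totals moved the median level and the median bound by less than the SD over the medians of the plants. TMM-scaled totals, thinning and higher minimums moved the coefficient of variation by less than the SD of its 3 values without 1 plant. The ratios of pruinosa plant 3 to plants 1 and 2 stayed under 1 in all 6 alternatives each, all chosen after seeing the data. They were 0.237 and 0.239 for contigs chosen without plant 3. For those of them with at least 1 count in it they were 0.376 and 0.370. There the minimum of 10 counts in plant 3 no longer applies, and a choice on plants 1 and 2 itself favours lower ratios.

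The share of contigs that met the rule in the library left out was, with a minimum of 20 counts, 90.7% for pruinosa plant 2, 52.9% for pruinosa plant 3 and 73.4% for racemosa plant 2. With a minimum of 50 counts it was 62.7% for pruinosa plant 1, 89.7% for pruinosa plant 2 and 65% for racemosa plant 3. After thinning it was 88.6% for pruinosa plant 2, 70% for racemosa plant 1 and 76.5% for racemosa plant 2. The other 9 of these 18 values lay within the intervals given above. Those intervals cover counting error over contigs and no spread between plants, and the sets of contigs overlap, so this is a description only.

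Contigs called higher in G. pruinosa numbered 483, of which 100 were members. DESeq2 called 2857 and 208, and the cause was not tested. The replicate block left 16 and 0. Leaving out 1 library gave 0 to 1326 contigs and 0 to 157 members. Without both pruinosa plant 3 and racemosa plant 1 edgeR called 0 and 0, with 9792 contigs at an unadjusted p under 0.05. RLE scaling, no scaling, no filter and limma-voom kept both numbers within 1.5-fold. The deviations of same-numbered plants from the mean of their species gave correlations of -0.25, 0.05 and -0.23, and pruinosa plant 3 correlated best with racemosa plant 1 (0.338); the numbers pair no plants. The mean CPM of the 20 named members moved by at most 1.15-fold with TMM-scaled totals or thinning. Leaving out 1 plant moved it by over 1.5-fold for 11 of them, most for Gpru_v1_contig_17327 (0.520 CPM without pruinosa plant 2, against 4.76) and Gpru_v1_contig_11359 (0.759 against 4.32). Depth limited racemosa plant 1 most.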

Other observations

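Some contigs that were missing from all G. racemosa plants were also missing from 1 G. pruinosa plant. With at least 50 counts in each of the other two G. pruinosa plants and 0 counts in every G. racemosa plant, 19 contigs had 0 counts in pruinosa plant 1 and 8 had 0 counts in pruinosa plant 3, while none did in pruinosa plant 2. Over all contigs, pruinosa plant 2 had only 2 with 0 counts, against 3481 in plant 1 and 3134 in plant 3. With so few in plant 2, finding none there was nearly fixed beforehand, and no difference between the plants is read from it. The share with 0 counts among all contigs of like counts was not computed, so the 19 and 8 are a description only. The best counted contig missing from plant 1 and that missing from plant 3 were chosen after their values were seen. Gpru_v1_contig_20307 had 0, 344 and 335 counts in pruinosa plants 1, 2 and 3, so that the 2 plants that carried it were level at 6.36 and 6.30 CPM. Gpru_v1_contig_18474 had 250, 292 and 0 counts, with plants 1 and 2 level at 5.28 and 5.40 CPM. Both had 0 counts in all G. racemosa plants, where the limits lie between 0.0462 and 0.127 CPM.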
